A study of Homo sapiens with 4 samples.

Results

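The regions described here are the genomic sites that were read in contact with the ribosomal DNA (rDNA) of K562 cells both before and after hemin treatment, as listed in the repeat-filtered files of a circular chromosome conformation capture (4C) experiment. K562 is a human chronic myeloid leukemia cell line that hemin drives towards an erythroid fate. In 2 replicates the cells were untreated, and in the other 2 they had been kept with 50 μM hemin for 108 h; the line and the viewpoint were the same in all 4 libraries. The rDNA viewpoint lies in the intergenic spacer, and hg38 holds it 3 times on chromosome 21, at chr21:8237910-8238206, chr21:8420934-8421230 and chr21:8465517-8465813. A kept region is a region of the untreated list that shares at least 1 base with a region of the hemin list and lies more than 10 kb from these copies. This left 2292 of 20608 untreated regions (11.1%), which met 2314 of 18874 hemin regions (12.3%). Members were thus chosen by their measured presence in both states, and their presence is no finding. The 4C reads carry no expression values, so the erythroid state of the treated cells was not checked here.

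The rDNA genes are repeated in arrays on the short arms of the acrocentric chromosomes 13, 14, 15, 21 and 22. Each unit holds a transcribed part, which gives the 18S, 5.8S and 28S rRNAs of the ribosome, and a long spacer. In 4C, fixed chromatin is cut, here with EcoRI at GAATTC, and ligated, cut again with FaeI at CATG and circularized, and primers in the viewpoint then amplify whatever was ligated to it. Diverged pieces of rDNA also lie elsewhere in the genome, mainly near centromeres.

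The 4 members with the highest signal aligned to rDNA at 78.9% to 94.85% identity. The stretch of 105 bases that follows the viewpoint in the rDNA, up to its nearest CATG, was compared with every region, because it is the sequence into which one of the viewpoint primers reads. It is shown first, with 3 members from other chromosomes whose capitals mark runs of at least 16 bases shared with it on either strand (hg38, plus strand).
rDNA after the viewpoint, chr21:8238207-8238311: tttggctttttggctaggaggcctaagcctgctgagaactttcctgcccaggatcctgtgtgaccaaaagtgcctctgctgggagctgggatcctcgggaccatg
Near CDC27P1, chr2:132265779-132265894: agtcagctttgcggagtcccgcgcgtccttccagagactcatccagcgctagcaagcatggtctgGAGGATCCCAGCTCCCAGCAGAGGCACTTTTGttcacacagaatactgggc
Near CDC27P3, chr20:29750779-29750893: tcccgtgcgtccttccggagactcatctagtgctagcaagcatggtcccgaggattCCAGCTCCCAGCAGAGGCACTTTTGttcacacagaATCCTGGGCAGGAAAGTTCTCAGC
KDM4B, chr19:5049787-5049808: tgTCCCAGCTCCCAGCAGgggc

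Such a run of 16 bases was found in 25 of 2279 kept regions (1.10%, 95% Wilson interval 0.744 to 1.61%). It was found in 3 of 18287 regions listed only in untreated cells (0.0164%) and in 3 of 16525 listed only after hemin (0.0182%). The 25 kept regions lay on 14 chromosomes, and none had an EcoRI site within 100 bases. Their places, where a place is a set of overlapping regions merged over the 4 replicate lists, held 587197 and 634454 reads in the untreated replicates and 325161 and 342067 in the hemin replicates. This was 25.2% and 25.4% of all reads in kept places before hemin and 26.95% in both after it. The median log2 ratio of the 25 places, hemin over untreated, was -0.14, and 24 of them lay within 2-fold. Of the displayed members, the place near CDC27P3 was read 19287 and 21437 times before and 10734 and 11246 times after hemin, which was 15200 and 15810 against 14500 and 14330 after scaling each library to the same number of reads outside the viewpoint. The short region in KDM4B, which encodes a histone demethylase, had scaled reads of 195 and 235 before and 124 and 206 after, so that the states overlapped. Over a wider comparison with blastn, 58 of 2279 kept regions (2.54%) aligned over at least 30 bases to the whole rDNA unit of 44209 bases, with a median identity of 86.1%, against 1.43% and 1.20% of the regions listed in 1 state only. Of these 58, 27 aligned within 2 kb of the viewpoint in the unit.

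The highest mean signal of all members was at chr12:38051369-38051794, 26.7 kb from the pseudogene AK6P2, in a region that aligned to the rDNA unit at 78.9% identity. It was read 169448 and 187078 times in the untreated replicates and 81693 and 83277 times in the hemin replicates. Scaled, these were 133500 and 138000 against 110300 and 106100, so that both hemin values lay below both untreated values, by 1.25-fold. The next were chr14:16044964-16045293 and chr22:11262186-11262555, each about 12.2 kb from an annotated 5.8S rRNA gene copy, and chr22:11620991-11621382. Their identities to the rDNA unit were 94.8%, 94.8% and 92.6%. At the chr14 place the scaled reads were 79470 and 79510 before and 84490 and 85660 after hemin, and at chr22:11262186-11262555 they were 80260 and 80290 before and 84640 and 86210 after. These were higher by 1.07-fold and 1.06-fold, while chr22:11620991-11621382 went from 81960 and 82620 to 76120 and 75360. The 10 places with the most reads held between 35.6% and 37.2% of all reads in kept places in the 4 libraries, and 7 of these 10 resembled the rDNA unit.

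A further 13 members were placed between bases 4565 and 33587 of chromosome 14, where hg38 holds no sequence before base 16000001. Their deposited sequences are rDNA: 12 of the 13 aligned to the unit, and 8 matched an unplaced rDNA contig of hg38 exactly. By the position of the viewpoint primer in that contig, 7 of the 13 lay within 10 kb of a further copy of the viewpoint primer, which the exclusion of the chromosome 21 copies does not remove. The strongest, at chr14:12382-12494, was read 96981 and 107484 times before and 37435 and 39849 times after hemin, a scaled drop of 1.54-fold. Together the 8 places of these 13 held 161108 and 177681 reads before and 78649 and 80535 after. They were left out of the counts below that are given out of 2279 members. Counts out of 2292 members and counts of places include them.

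**Figure D1:**
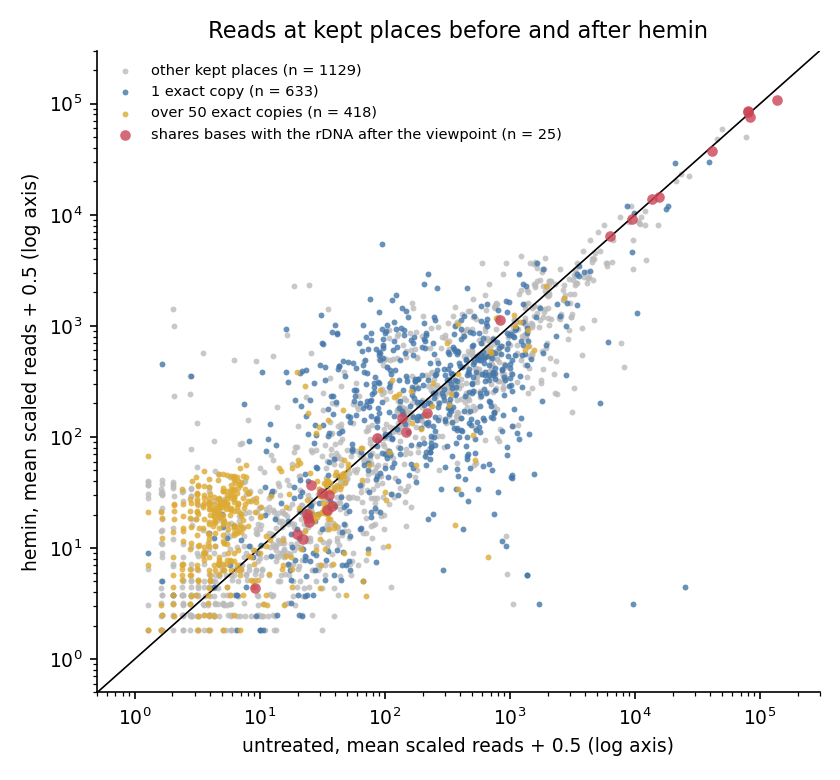
Mean scaled reads of each kept place in the 2 untreated replicates (x axis) and the 2 hemin replicates (y axis), both plus 0.5 and on log axes; colors mark places whose regions have 1 exact copy in hg38, over 50 copies, or bases shared with the rDNA after the viewpoint, and the line marks equal values. The 25 places that share bases with the viewpoint's flank lie close to the line, while places with 1 copy spread widely around it.

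Sequencing gave 31721628 and 34000240 reads in regions of the untreated replicates and 19548906 and 20577487 in the hemin replicates, of which between 46.9% and 49.5% lay outside the viewpoint copies. The 2292 members fell into 2205 places. Their share of the reads outside the viewpoint was 14.8% and 14.9% in the untreated replicates and 13.2% and 13.1% in the hemin replicates. The hemin mean lay 1.73 percentage points lower and the groups did not overlap (two-sided exact permutation test, p = 0.333, the smallest that 2 against 2 allows). Members were chosen by presence in both states, so this share is a description and nothing is read from the test. Without the places that shared bases with the viewpoint's flank the shares were 11.1% and 11.1% before and 9.62% and 9.55% after. Across the 2205 places the log2 scaled reads of the untreated replicates correlated with Pearson's r = 0.976 and those of the hemin replicates with r = 0.969, whereas between the states r lay between 0.804 and 0.807. These values are descriptions over places that share libraries. The median absolute difference was 0.17 and 0.21 (log2) within the groups and 1.09 to 1.12 between them. The study calls the replicates biological. No source used here says whether each had its own ligation, so the spread between them may leave part of the variation out.

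Being kept was not the same as being read equally. Of the 2205 places, 1062 (48.2%) lay within 2-fold of the same scaled reads in both states, and 230 (10.4%) differed by more than 8-fold, 150 of them higher and 80 lower after hemin. The median log2 ratio, hemin over untreated, was -0.03. For the test, 1860 of the 2205 kept places reached 10 reads in at least 2 libraries. edgeR called 671 of them higher and 709 lower at an adjusted p under 0.05, 74.2% in all. Over all 43471 places tested, 94.8% were called, 46.3% higher and 48.6% lower, and 85.9% had no read in either library of 1 state. Members had to be read in both states, so the calls describe them and nothing is read from their share. Of the 1380 called members, 436 lay within 2-fold.

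**Figure D2:**
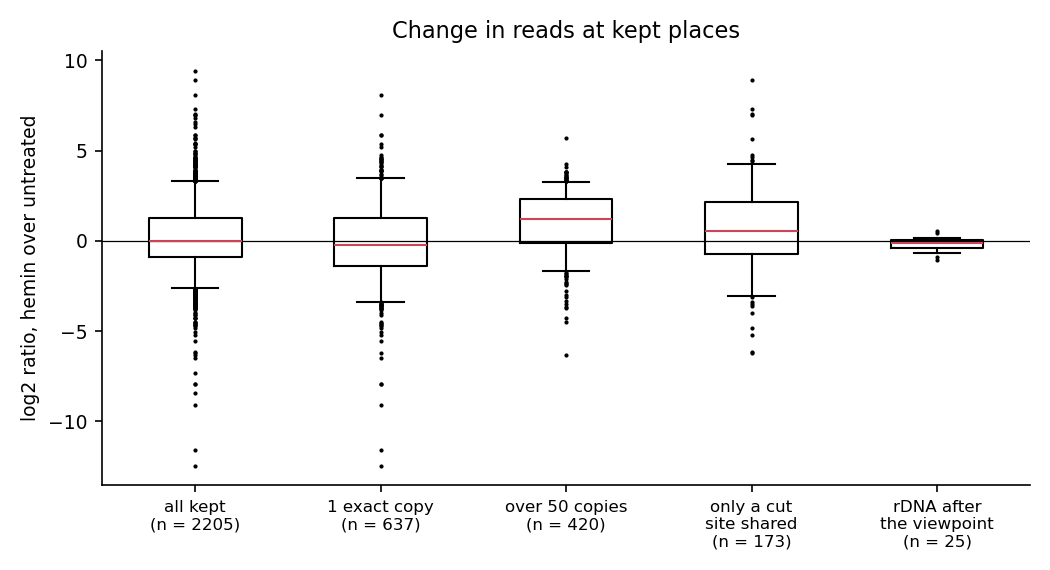
Log2 ratio of scaled reads, hemin over untreated, for kept places in groups (boxes: quartiles and median; whiskers: 5th to 95th percentile; points: places outside them; a place can be in several groups). Places with over 50 copies have their median at 1.19, and the 25 that share bases with the rDNA after the viewpoint lie between -1.06 and 0.54.

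Part of the overlap between the states was a cut site and nothing more. In 173 members (7.55%) the bases shared by the untreated and the hemin region were exactly one GAATTC or one CATG. In such a pair the regions of the states lie on opposite sides of the site. Their places differed by more than 8-fold in 23.7%, against 9.30% of the 2032 others, and lay within 2-fold in 35.3%, against 49.3%. The following examples are untreated regions with a shared CATG, the first in an intron of DST, which encodes the cytoskeletal linker dystonin, and the second 0.074 kb from the gene ENSG00000237835. Here no GAATTC is present to be capitalized.
DST, chr6:56707510-56707533: aggacagtagaatccaagcacatg
Near ENSG00000237835, chr22:16856236-16856258: aacattgactacagtatatcatg
The DST place was read 2 and 4 times before and 281 and 259 times after hemin, and the place near ENSG00000237835 was read 3 and 1 times before and 774 and 758 times after. Both were among the 5 members with the highest ratios. At the limit of the overlap, 16 members shared 1 base with a hemin region; the strongest of them, chr4:49266060-49266112, had a signal of 271.0 before and 29 after. No untreated region outside the set touched a hemin region end to end, and 21 lay under 10 bases from one. At the limit of distance, the nearest member was chr21:8205498-8205540, 32.4 kb from a viewpoint copy, with a signal of 111 before and 41.5 after, and the farthest region left out was 3.05 kb away, with 1091.5 and 193.5.

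At the other end were members that all but disappeared. The lowest ratio was at chr16:54996329-54996538, 11.4 kb from the pseudogene MTND5P34, which was read 31806 and 33676 times before and 4 and 2 times after hemin. The region in introns of ADAM21, which encodes a membrane protein of the metalloprotease-disintegrin family, and of an overlapping lncRNA, ENSG00000257759, was read 12229 and 13078 times before and 2 and 2 times after. SDCCAG8, a gene of the centrosome, held an intronic region read 2128 and 2319 times before and again 2 and 2 times after. In the pseudogene BCRP4 the values were 1305 and 1491 before and 2 and 2 after, and in an exon of the zinc finger gene ZNF648 they were 1713 and 1857 before and 2 and 6 after. These members belong to the set by a handful of reads in the hemin lists. All but the ZNF648 region carry an EcoRI site, in capitals, at or near an end.
ADAM21, chr14:70447349-70447503: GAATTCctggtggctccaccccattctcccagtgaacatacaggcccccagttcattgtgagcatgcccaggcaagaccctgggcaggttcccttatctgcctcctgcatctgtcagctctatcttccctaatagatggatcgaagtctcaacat
SDCCAG8, chr1:243395349-243395523: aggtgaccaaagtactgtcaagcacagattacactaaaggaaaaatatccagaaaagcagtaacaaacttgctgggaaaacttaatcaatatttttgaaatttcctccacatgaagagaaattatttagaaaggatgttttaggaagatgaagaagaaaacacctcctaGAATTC

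The 5 steadiest members among those with a signal of at least 100 in each file (824 regions) lay outside protein-coding genes. Of all 2279 members, 16.2% met such a gene, so nothing particular to steady members is read from it. Near DUXAP8, at chr22:15840813-15840891, the scaled reads were 127 and 143 before and 131 and 139 after hemin. At chr21:6284544-6284620 they were 295 and 258 before and 246 and 304 after, and at chr18:40257400-40257478, the only one of the 5 with 1 exact copy, they were 341 and 306 before and 311 and 340 after. In all 3 the ranges of the states overlapped.

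**Figure D3:**
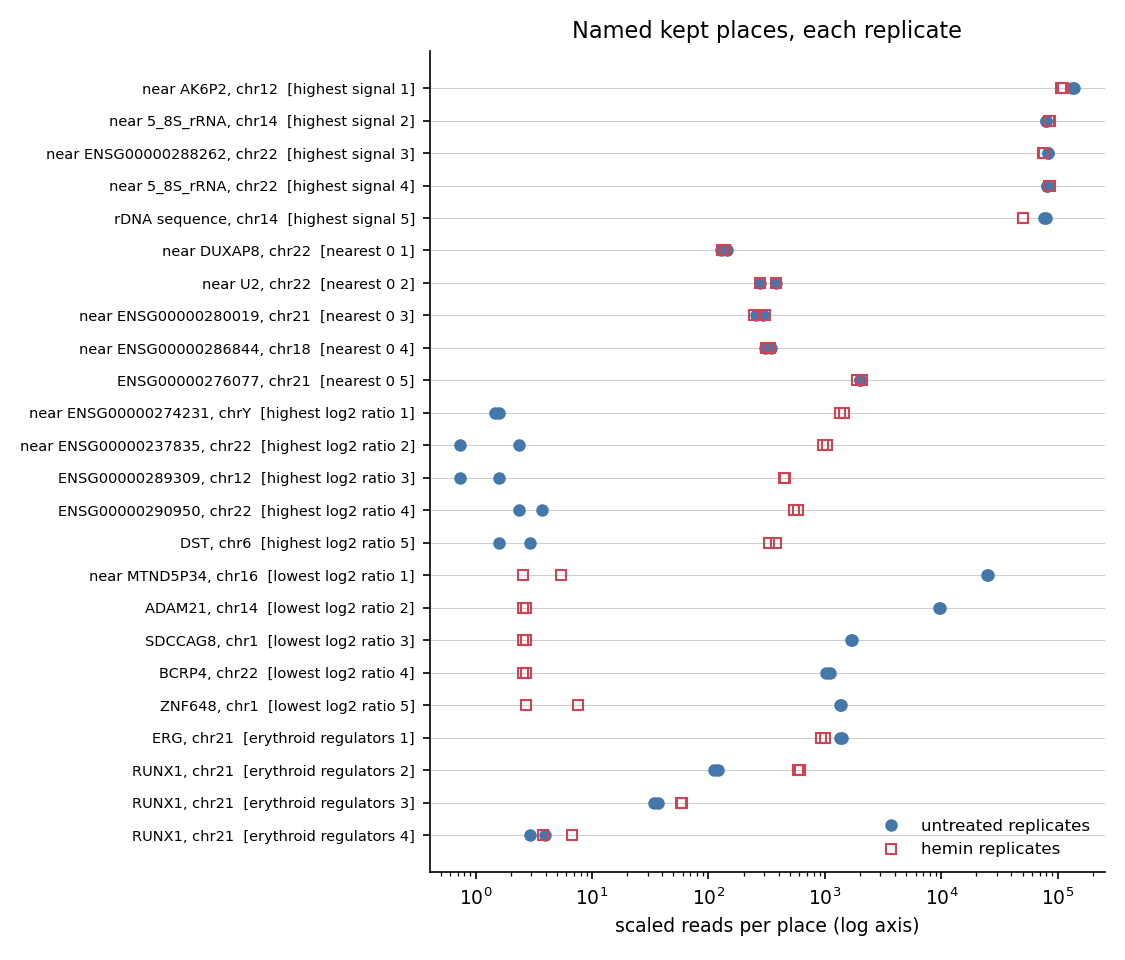
Scaled reads (log axis) of the named kept places in each replicate: filled circles are untreated and open squares hemin, and brackets give the rule by which a place was named. Replicates of a state lie together in nearly every row, and the states lie far apart for the highest and lowest ratios.

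By sequence, members were mostly multi-copy despite the authors' repeat filter. The central 31 bases had 1 exact copy in hg38 in 660 of 1913 members long enough to compare (34.5%, 95% Wilson interval 32.4 to 36.7%). The share was 64.0% (63.2 to 64.8%) of regions listed only in untreated cells and 75.8% (75.1 to 76.6%) of those listed only after hemin. Between 2 and 50 copies were held by 22.8% (2 to 5 copies) and 20.5% (6 to 50) of members, against 6.64% and 5.79% of untreated-only regions. Read the other way, 30.3% of the untreated regions with 2 to 5 copies and 30.9% of those with 6 to 50 were kept, but 6.39% of those with 1 copy and 10.7% of those with over 50. The part of multi-copy mapping in being kept was not tested. Signal also differed: 29.6% of untreated regions with a signal of 1000 or more were kept, against 8.94% of those under 10.

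**Figure D4:**
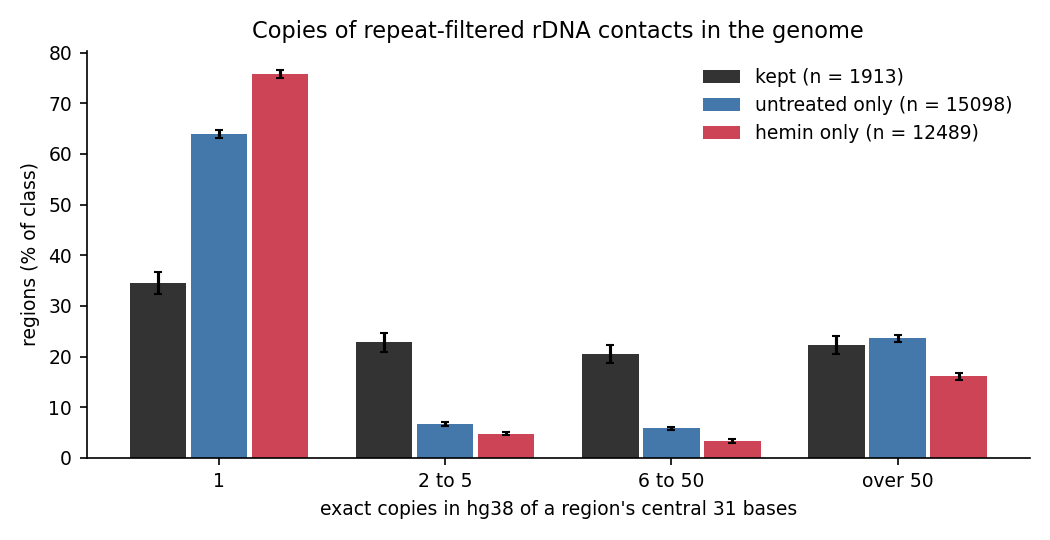
Share of regions (y axis, %) by the number of exact copies of their central 31 bases in hg38 (x axis), for kept regions and for regions listed only in untreated cells or only after hemin; error bars are 95% Wilson intervals, which cover counting error only. Kept regions have 1 copy in 34.5% and 2 to 50 copies far more often than the other classes.

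An EcoRI site, the mark of the first cut, lay within 100 bases of 1525 of 2279 members (66.9%, 95% interval 65.0 to 68.8%), of 63.1% of untreated-only and of 66.5% of hemin-only regions. At the very end of the region it was found in 39.8% of members, against 51.8% of untreated-only regions. In the coordinates of the hemin file the share was 48.4% of the regions met, against 54.7% of hemin-only regions. GC content hardly differed, with medians of 39.3%, 39.0% and 39.1%.

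Members were gathered on the acrocentric chromosomes and next to assembly gaps. Chromosome 21 held 519 of 2292 (22.6%), chromosome 22 held 269 (11.7%) and chromosome 10 held 242 (10.6%), whereas chromosome X held 1. Chromosome 14 held 64, of which 13 were those without hg38 sequence. Of the 2279 members with hg38 sequence, 41.2% lay on the acrocentric chromosomes, against 24.8% of untreated-only and 18.9% of hemin-only regions, and 64.1% lay within 1 Mb of a gap of at least 50 kb, against 29.4% and 19.03%. On chromosome 21, 30.1% of the untreated regions were kept, on chromosome 22 20.4%, and on chromosome Y 42.2% (70 members, 10 of them with 1 copy). Chromosomes 1, 5 and 7, with over 1000 untreated regions each, kept 5.37%, 4.29% and 3.72%. Of the 425 windows of 1 Mb with a member, 19 held at least 20 members each and together 46.1% of all.

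**Figure D5:**
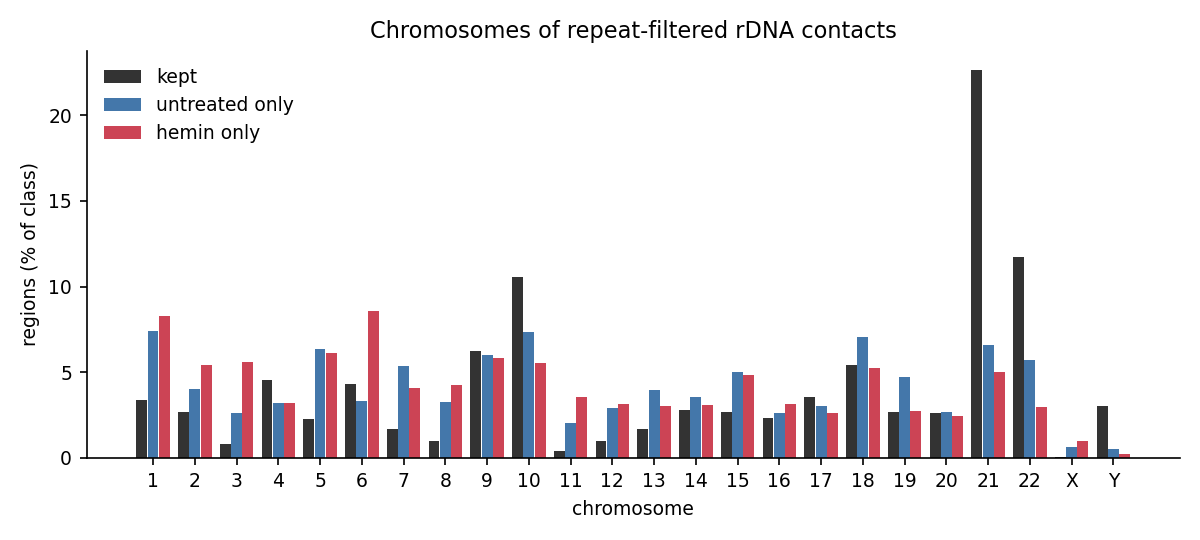
Share of each class of regions (y axis, %) on each chromosome (x axis), for kept regions and those listed only in untreated cells or only after hemin. Chromosomes 21, 22 and 10 hold 22.6%, 11.7% and 10.6% of kept regions, more than of either other class.

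The densest windows were of unlike kinds. On the short arm of chromosome 21 the window at 7 to 8 Mb held 97 members, 1 of them with 1 exact copy, with 4502 and 4457 RPM (reads per 1000000 reads outside the viewpoint) before hemin and 3611 and 3559 after. On chromosome 22 the window at 11 to 12 Mb, which holds 2 of the strongest places, had 65 members, with 19590 and 19550 RPM before and 18320 and 18400 after. Windows at centromeres differed among themselves. In the window at 40 to 41 Mb of chromosome 10 there were 128 members with a median of 1162 copies, with 46.1 and 44.4 RPM before and 190.0 and 189.5 after, and 66 of 79 tested places were called higher and 0 lower. In the window at 58 to 59 Mb of chromosome 6 there were 69 members with a median of 362 copies, 2 of them with 1 exact copy. This window had 22.6 and 22.4 RPM before and 188 and 182 after. There 56 of 58 tested places were called higher and 1 lower. In this window and that of chromosome 10, places could reach 10 reads in 2 libraries through the hemin replicates alone. The calls therefore describe these places, and nothing is read from their number. Members that are copies of a repeat are also not independent of each other. Called higher were 36.1% of all tested members and 46.3% of all tested places. In the window at 26 to 27 Mb of chromosome 19, by contrast, 29 members with a median of 6114 copies had 43.6 and 40.1 RPM before and 36.8 and 38.9 after, with a median log2 ratio of 0.03. In the window at 49 to 50 Mb of chromosome 4, 65 members with a median of 14 copies had 2702 and 2636 RPM before and 2068 and 2019 after, with a median of -0.46. A member of the chromosome 10 window, which aligned to 1162 exact copies of its central bases, is shown as an example of this repeat.
Centromeric window, chr10:40931239-40931297: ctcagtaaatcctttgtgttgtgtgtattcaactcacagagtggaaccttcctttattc
Its place was read 9 and 8 times before and 22 and 59 times after hemin. Over all 420 kept places with over 50 copies the median log2 ratio was 1.19, and it lay between 1.12 and 1.39 under the other scalings tried. Their summed reads were 0.284% and 0.305% of the reads outside the viewpoint before and 0.251% and 0.240% after, in the opposite direction to the median.

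Members with 1 exact copy can be placed with more certainty than the others, though near copies were not counted. Their 637 places held 5.02% and 5.04% of the reads outside the viewpoint before and 4.24% and 4.23% after hemin, with a median log2 ratio of -0.24. Some of these places resembled the rDNA unit. Of the group's 788401 reads in untreated replicate 1, the place near AK6P2 held 169448 and that of chr22:11620991-11621382 held 104027. Members with 1 copy were most numerous at 25 to 26 Mb of chromosome 18, where 37 of 43 members had 1 copy, on the short arm of chromosome 9 between 16 and 21 Mb and on the long arms of chromosomes 21 and 22. In the chromosome 18 window the RPM were 917 and 900 before and 1017 and 962 after hemin, while the median log2 ratio of its places was -0.54 and lay between -0.61 and -0.33 under the other scalings. Of 42 tested places 15 were called higher and 18 lower. In either direction 74.2% were called among all tested members and 94.8% among all tested places. In this window 43 of 168 untreated regions were kept.

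Genes held 773 of the 2279 members (33.9%, 95% interval 32.0 to 35.9%), against 48.4% of untreated-only and 54.9% of hemin-only regions. For protein-coding genes the shares were 16.2%, 34.5% and 39.7%. Exons were met by 120 members (5.27%) and introns alone by 653. Members outside genes lay at a median of 50678 bases from the nearest one. Of the 202 protein-coding genes that were met, 124 held 1 member and 29 held 3 or more. DSCAM on chromosome 21, which encodes a cell adhesion molecule of neurons, held 18 members in 16 places, 16 of them with 1 copy. Its places summed to 672 and 656 RPM before and 561 and 536 after hemin. ZNF521 on chromosome 18, a zinc finger gene of blood progenitors, held 16 members and went from 214 and 202 to 330 and 293 RPM. On chromosome 9, MLLT3, known as a fusion partner in leukemia and as a gene of blood stem cells, held 8, with 342 and 342 before and 276 and 269 after. ADAMTSL1, SH3GL2, SLC24A2 and BNC2 on the same arm held 9, 7, 6 and 5. The median log2 ratios over the places of DSCAM, ZNF521 and MLLT3 were -0.13, 0.13 and -0.09. In APP, the amyloid precursor gene, 3 members summed to 198 and 198 RPM before and 37.1 and 29.1 after, and in CHST9, a sulfotransferase gene, 3 members went from 24.7 and 24.3 to 139 and 137. APP and CHST9 were picked after their values were seen. Of all 2205 kept places, 48.2% lay within 2-fold and 10.4% differed by more than 8-fold, so nothing particular to these genes is read from it.

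Lists of genes were then searched. None of the members overlapped a list of 58 annotated genes, among them the globin genes, ID3 and DUX4 and its annotated copies. The list was met by 14 untreated-only (0.0765%) and 9 hemin-only regions (0.0544%). The study extended contacts by 2.5 kb for its gene counts, while 1 shared base was required here. One member did lie in DBET, an RNA gene of the same D4Z4 repeat region at the end of chromosome 4 as DUX4. This member, chr4:190067448-190067521, has 21 copies, with scaled reads of 21.3 and 23.6 before and 18.9 and 8.92 after hemin. Other members lay near this chromosome end outside DBET. The place of chr4:190100470-190100662 went from 2000 and 2025 to 1107 and 1235, and that of chr4:190102787-190102866 from 273 and 254 to 1008 and 958. All 3 were singled out after their values were seen. Of 23 erythroid and blood regulators, 2 were met, by 4 members (0.176% of members, against 0.241% and 0.351% of the other classes). In ERG, an ETS factor of blood stem cells and endothelium, an intronic region was read 1706 and 1902 times before and 683 and 791 times after hemin. On the scaled level this was 1344 and 1403 against 922 and 1008, 1.42-fold lower. In RUNX1, a regulator of definitive blood formation, an intronic region had scaled reads of 112 and 121 before and 589 and 612 after, 5.14-fold higher, and a neighbor went from 37.0 and 33.9 to 59.4 and 58.6. The states did not overlap at any of these 3, nor at 97.2% of all tested places and 86.4% of the tested members, so that nothing particular to these genes is read from it. The fourth, a short RUNX1 region with 3 to 5 reads per library, was under the filter on reads. The ERG region and the RUNX1 regions other than this short one end or begin with the EcoRI site.
ERG, chr21:38579005-38579124: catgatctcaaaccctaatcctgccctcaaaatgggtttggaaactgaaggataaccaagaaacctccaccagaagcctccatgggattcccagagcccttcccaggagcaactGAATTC
RUNX1, chr21:35606566-35606644: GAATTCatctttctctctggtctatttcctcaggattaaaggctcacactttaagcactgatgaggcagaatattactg

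Of the ribosome genes and their pseudogenes, RPL23AP49 was met, a pseudogene of a large-subunit protein, in a region that also lies on the miRNA gene MIR1324 and has 4 copies. It was read 824 and 955 times before and 1775 and 1878 times after hemin. The other hit of that list, RPS6KA2, encodes a kinase and no part of the ribosome, and its region of 21 bases was read between 5 and 28 times. This region is among the 25 that share a run of bases with the viewpoint's flank. Neuronal and adhesion genes held 8 members (0.351%), against 1.55% and 1.95% of the regions listed in 1 state. In GRIN2B, which encodes a subunit of the NMDA receptor, the scaled reads were 457 and 484 before and 254 and 248 after. In CDH13, a cadherin gene, they were 719 and 720 before and 45.9 and 54.8 after, and in CNTN1, which encodes contactin, they were 52.0 and 42.0 before and 348 and 363 after. In TENM2 they were 340 and 358 before and 366 and 367 after, a difference of 1.05-fold. The TENM2 region has 25 bases and no EcoRI site within 100 bases. Much of its sequence resembles the viewpoint's flank, though without a shared run of 16 bases, so it is not among the 25 regions. Of the 6 tested places of this list 2 were called higher and 3 lower, which is read against the 94.8% called over all tested places and 74.2% over members and is no result about the list.
GRIN2B, chr12:13507441-13507569: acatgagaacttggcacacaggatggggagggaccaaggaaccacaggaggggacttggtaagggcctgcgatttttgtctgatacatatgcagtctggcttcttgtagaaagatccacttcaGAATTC
CNTN1, chr12:40883728-40883807: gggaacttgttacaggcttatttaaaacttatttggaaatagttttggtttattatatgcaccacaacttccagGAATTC

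Genes whose symbols begin with ZNF, mostly zinc finger factors, held 32 members in 11 genes (1.40%), against 0.875% and 0.986% of the other classes. Of these 32 members, 16 lay in ZNF521 alone, so the share rests largely on 1 gene. Of the 32 tested places 8 were called higher and 12 lower, again beside 94.8% and 74.2% called. The strongest lay in introns of ZNF717 and LINC00960, in a sequence with 6 copies, with scaled reads of 12110 and 12230 before and 3941 and 3858 after. In ZNF678 they were 1301 and 1259 before and 1080 and 1088 after. LINC transcripts held 47 members (2.06%), against 3.24% and 3.68%, and 19 of 44 tested places were called higher and 20 lower, beside the same shares of all tested places and members. LINC01643, with 1 copy, went from 1008 and 1021 to 822 and 878, and LINC01410, with 8 copies, from 474 and 490 to 1380 and 1348.

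Among members with 1 copy inside protein-coding genes and a signal of at least 100 in both files, chosen after their values were seen, the strongest lay in EXOC1L, with scaled reads of 6108 and 6131 before and 736 and 693 after hemin. An exon of TTC3, which encodes a ubiquitin ligase of the chromosome 21 region duplicated in Down syndrome, went from 5356 and 5202 to 205 and 196. An intron of KMT2C, a histone H3 lysine 4 methyltransferase gene, went the other way, from 1674 and 1635 to 3746 and 3619. An exon of PLIN2, which encodes a lipid droplet coat protein, went from 986 and 969 to 1649 and 1636.
KMT2C, chr7:152404030-152404177: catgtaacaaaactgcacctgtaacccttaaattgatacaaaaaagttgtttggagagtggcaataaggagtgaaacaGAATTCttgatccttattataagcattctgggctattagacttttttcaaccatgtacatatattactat
PLIN2, chr9:19115791-19115860: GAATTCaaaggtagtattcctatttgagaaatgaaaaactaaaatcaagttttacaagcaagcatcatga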

How the data were processed

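4C libraries of 2 untreated and 2 hemin-treated K562 replicates were used. Per the labels and the methods, the authors trimmed reads with cutadapt 3.5, mapped them to hg38 with BWA 0.7.17-r1188 and joined them into regions with SAMtools 1.14 and bedtools 2.29.1. The authors deposited, for each replicate, regions with the count of reads, and, for each state, regions of both replicates without annotated repeats, with a signal. That signal was the mean of the 2 replicate counts in all 609 untreated and 670 hemin members listed with identical coordinates in each replicate. The methods name the removal of unaligned reads and no filter on mapping quality, and the study's gene counts included reads with several mapping positions. How such reads were assigned to regions is not given in the sources used here. PCR reads are not independent molecules, so intervals cover counting error only.

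The members, gene lists and tests were chosen with earlier results of these data known. Regions of the 4 replicate lists were merged by overlap into places. Scaled reads were counts divided by the library's reads outside 10 kb of the viewpoint copies, times the geometric mean of these totals (12368636). Log2 ratios are on the scale of mean scaled reads plus 0.5. edgeR 4.0.16 (quasi-likelihood, Benjamini-Hochberg over all tested places, at least 10 reads in 2 libraries) was the main test and DESeq2 1.42.0 an alternative; the scripts were tested on simulated data. Copies were counted as exact matches of the central 31 bases on both strands of hg38 without alternate contigs. rDNA likeness used blastn 2.17.0 (E value at most 1e-05), and genes came from GENCODE release 44. Named regions were those with the highest mean signal, the highest, lowest and steadiest ratios among regions with a signal of at least 100, and the strongest of each gene list, 5 each. The comparison with the viewpoint's flank and the division by shared cut site were added after seeing the data.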

Additional observations from a re-analysis of the deposited data

How the results depend on the processing

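The number of kept regions, 2292, was 294 when both ends had to be the same, 4929 when regions within 2.5 kb counted, and 1401 when each replicate needed at least 10 reads; it was between 1697 and 2310 under the other 5 settings. The difference in the share of reads in kept places, hemin minus untreated, was between -6.94 and -1.17 percentage points under the settings tried (-1.53 without the rDNA placed in chromosome 14), and between -1.78 and -1.68 with 1 library left out. Leaving out 1 library in turn gave 471 to 629 kept places higher and 510 to 691 lower. With the replicate number as a replicate block, edgeR called 0 higher and 0 lower at an adjusted p under 0.05 (419 and 448 at an unadjusted p under 0.05), while DESeq2 without the block called 661 and 694. The labels give replicates of the 2 states the same numbers and do not say whether they were paired. The same-numbered deviations correlated at -0.04 over 1860 places, a value from 4 libraries that cannot settle it. No other setting moved either count by more than 1.5 times. The median log2 ratio over kept places, -0.03, has no settled direction: it was 0.18 with TMM, 0.08 with the size factors of DESeq2, -0.10 scaled by all reads, -0.16 over places with at least 100 reads, -0.11 over repeat-filtered places passing the read filter and -0.24 over places with 1 exact copy, and between -0.06 and 0.02 with 1 library left out. The share of members with an EcoRI site was 54.7% within the region and 90.2% within 500 bases. The share in a gene was 16.2% for protein-coding genes and 40.8% with 2.5 kb added on each side.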
